A study of Mus musculus with 18 samples.

Results

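The genes examined here were 10 ligands through which a cell slows or helps the T cells and natural killer (NK) cells that touch it: Cd274, Pdcd1lg2, Cd80, Cd86, Cd276, Icosl, Lgals9, Pvr, Nectin2 and Vsir. They were taken as a named list of checkpoint and costimulatory ligands, by Ensembl identifier in the endothelial table and by symbol in the EO771 table. All 10 had a line among the 55401 lines of the endothelial table and among the 22612 lines of the EO771 table. RNA was sequenced in 18 libraries of 6 groups, with 3 libraries in each group. Blood endothelial cells (BECs) were sorted as CD45-, CD31high and PNAd- from the mammary fat pad of female mice without a tumour (BEC normal) or from a primary tumour grown from inoculated tumour cells (BEC tumour). High endothelial cells (HECs), which line the high endothelial venules through which lymphocytes enter lymph nodes, were sorted as CD45-, CD31high and PNAd+ from inguinal lymph nodes of mice without a tumour (HEC normal) or from lymph node metastases (HEC tumour). All mice were wild-type C57BL/6 and were obtained at 5 to 6 weeks of age. EO771, a mouse breast cancer cell line, was given vehicle (DMSO in saline) or 12-HETE, a lipid that the 12-lipoxygenase ALOX12 makes from arachidonic acid, at 100 nM for 48 h. Each cell type came from a tissue of its own, so that cell type and tissue cannot be told apart, and EO771 is a single line in culture. The legends of the study call its replicates independent experiments, but the labels tie no library to a mouse or culture and do not say whether animals were pooled, so p-values measure the spread between these libraries.

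T cells need a costimulatory signal beside that of the antigen receptor. CD80 and CD86 give it through CD28 and brake it through CTLA-4, and ICOS ligand, the product of Icosl, gives it through ICOS. PD-L1 (Cd274) and PD-L2 (Pdcd1lg2) bind the inhibitory receptor PD-1, while CD155 (Pvr) and CD112 (Nectin2) bind both the inhibitory receptor TIGIT and the activating receptor CD226. Galectin-9 (Lgals9) is a secreted lectin that binds TIM-3, VISTA (Vsir) is an inhibitory B7-like protein found mostly on myeloid and T cells, and B7-H3 (Cd276) is a B7 protein whose receptor on T cells is unsettled. In many cells interferon raises the transcription of Cd274 and Lgals9.

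The endothelial libraries held 56410964 to 79357993 counts and the EO771 libraries 17294591 to 18624179. Low endothelial values piled up in steps of about 3.75, so that 1 step was taken as 1 fragment. Summed CPM (counts scaled to the library total) of 8 endothelial markers lay between 2320 and 3050 in all 12 endothelial libraries. Of 5 high endothelial markers, Glycam1 and Chst4 were at 0 in every BEC library, and Ccl21a was at 0 in every HEC library. All groups were sorted as CD45-. The 11 myeloid and dendritic markers summed to 128 to 151 CPM in normal and 1570 to 2140 in tumour BECs. In HECs they summed to 496 to 520 CPM in normal and 363 to 383 in tumour libraries. Most of the HEC sums was Cd68, with means of 33270 and 23320 normalised counts in HEC normal and HEC tumour. The next highest of these markers in HECs, Zbtb46, was at 687.3 and 498.5. Over the 12 libraries leukocyte markers summed to 278 to 559 CPM, B cell markers to 2.14 to 10.5, T and NK cell markers to 4.11 to 8.05, lymphatic markers to at most 362 and platelet markers to at most 29.1. Chst4 was at 4.07 normalised counts in HEC normal replicate 2 and at 19910 or more in the other 5 HEC libraries, and Fut7 was at 14260 in HEC tumour replicate 3 against 65520 and 66480 in the other two. Each was left out of the comparisons that use its own group and of the interaction, and no count of ligand genes called changed there.

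On the TPM scale, which accounts for gene length and library total and so allows levels of different genes to be compared, Lgals9 was the highest of the 10 genes in each of the 6 groups. Its mean TPM was 532 and 306 in normal and tumour BECs, 451 and 285 in normal and tumour HECs, 1410 in EO771 cells with vehicle and 337 with 12-HETE. Nectin2 was second in the 4 endothelial groups, with mean TPM between 92.9 and 147. There Pvr and Cd276 came next, at 32.6 to 75.6 and 23.6 to 71.2 TPM respectively. Cd274 lay between 4.25 and 22.3 TPM in endothelial cells, and Cd80 between 2.89 and 9.58. EO771 cells held both PD-1 ligands, and endothelial cells nearly only Cd274. Pdcd1lg2 was listed at a mean of at most 0.0378 TPM in endothelial groups, whereas EO771 cells with vehicle carried it at 48.9 TPM beside 38.8 TPM of Cd274. The tables of the endothelial and EO771 libraries were made separately, and levels across them were not tested.

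**Figure D1:**
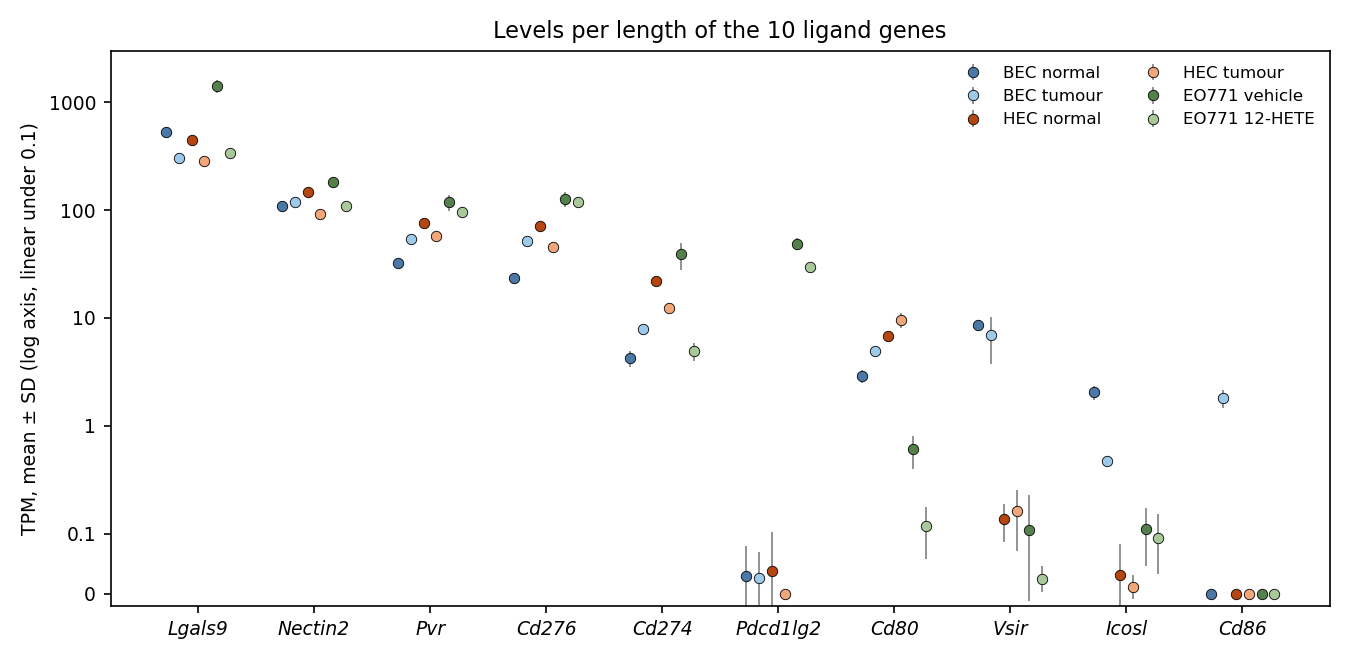
Mean ± SD over 3 libraries of the level per length (TPM, log axis that is linear under 0.1) of the 10 ligand genes in the 6 groups. Lgals9 is the highest gene in every group, and Pdcd1lg2 and Cd86 are near 0 in all groups but the EO771 groups and BEC tumour, respectively.

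Several of the 10 genes are neighbours in the mouse genome (GRCm38). Cd274 (chr19:29367455-29388095, plus strand) and Pdcd1lg2 (chr19:29410919-29471161, plus strand) are 22823 bases apart, Pvr (chr7:19903578-19921160) and Nectin2 (chr7:19716644-19750483) lie 153094 bases apart on the minus strand, and Cd80 and Cd86 are 1789479 bases apart on chromosome 16. Exons of 3 of the 10 genes overlap those of another annotated gene, over 14.1% of exon bases for Cd274, 11.4% for Cd276 and 3.86% for Nectin2. Whether counting used the strand is not given in the sources used here, so reads of Cd274 and of its antisense partner AC119228.1, and of Nectin2 and its antisense partner Gm20512, cannot be told apart over those bases. The promoter windows of the RefSeq table (GRCm38.p6, from 250 bases before to 50 after the start of transcription) covered 8 of the 10 genes, without Cd86 and Pvr. They were searched on both strands for the core of the interferon-stimulated response element (ISRE: GAAA, any 2 bases, GAAA), because interferon regulators were among the genes that differed between groups. The ISRE core was found in 3.44% of all 32851 promoter windows and in 1 of the 8, that of Lgals9, where it occurs at 2 places. The interferon-γ-activated site (GAS: TTCNNNGAA) was searched for in the same way and was found in 8.3% of all windows and in 0 of the 8. The stretches of the Lgals9 promoter that hold the matches are printed 5′ to 3′ on the strand of the gene (minus), with the match in capitals; the core itself reads on the opposite strand. The first match begins 55 bases before the start (window chr11:78984960-78984989) and the second 15 bases after it (window chr11:78984890-78984919).
Lgals9 upstream: tgacatcagcTTTCTTTTTCtctagacact
Lgals9 downstream: atagctgtggTTTCTGTTTCctagctcagc
A match describes these letters only and does not show that a factor binds there.

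HECs were first compared with BECs in mice without a tumour, the baseline difference between lymph node and fat pad endothelium. Among the 9 ligand genes that passed the filter on low values (a mean of 10 or more over the 12 libraries), Cd274, Cd276, Pvr and Cd80 were higher in HECs and Vsir and Icosl were lower, where a call needed an adjusted p under 0.05 and a change of more than 2-fold. Thus 4 of 9 were called higher and 2 of 9 lower, against 17.1% and 15.1% of all 18511 genes tested. By adjusted p alone 8 of 9 differed, against 63.3% of all genes. The median log2 fold change was 0.47 over the 9 and 0.00 over all genes. Pdcd1lg2 did not pass the filter, with at most 6.11 normalised counts in any endothelial library, and Cd86 passed it only through BEC tumour and was at 0 in all 6 libraries compared here. Leaving Cd86 out, 4 of 8 were higher and 2 of 8 lower, with a median of 0.86.

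Cd274, which encodes PD-L1, was read at 422, 339 and 467 normalised counts in the BEC normal libraries and at 2198, 2194 and 2192 in the HEC normal libraries. The HEC libraries lay within 6 counts of each other and all above the BEC libraries. The log2 fold change was 2.42 ± 0.12 (SE), or 5.35-fold (DESeq2 Wald test, Benjamini-Hochberg adjusted p = 9.39e-93). In bulk libraries a difference in the share of cells that carry a transcript and a difference in RNA per cell cannot be told apart. Cd276, encoding B7-H3, stood at 2296, 2149 and 2437 in BEC normal and at 7042, 7120 and 7103 in HEC normal. The groups again did not overlap, and the difference was 3.09-fold (log2 1.63 ± 0.07, adjusted p = 9.12e-112). Pvr was counted at 5105, 5495 and 5327 in BEC normal and at 13440, 12040 and 12330 in HEC normal, or 2.37-fold (log2 1.25 ± 0.06, adjusted p = 8.02e-94). Its neighbour and fellow TIGIT ligand Nectin2 was also higher in every HEC library (13790, 14310 and 13800 against 9060, 10750 and 10380) but by 1.39-fold, short of the threshold (log2 0.47 ± 0.07, adjusted p = 6.47e-10). Cd80, which binds both CD28 and CTLA-4, was at 295, 245 and 316 in BEC normal and at 659, 697 and 682 in HEC normal. All 3 HEC libraries were above the BEC libraries (log2 1.25 ± 0.15, adjusted p = 1.19e-15), but against a null of a 2-fold change the adjusted p was 0.421. Exact permutation of 3 against 3 libraries cannot give a two-sided p under 0.1, which was the value for each of these non-overlapping genes.

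Vsir and Icosl went the opposite way. Vsir, encoding VISTA, was read at 1071, 1243 and 1149 in BEC normal and at 25.4, 19.3 and 11.5 in HEC normal (log2 -5.95 ± 0.43, adjusted p = 1.22e-41). The ratio of BEC to HEC counts was 60.6, with a 95% counting interval from 36.6 to 109 that covers counting error only. Icosl was at 283, 251 and 217 in BEC normal, at 0 in 2 HEC normal libraries and at 11.5 in the other (log2 -6.02 ± 1.02, adjusted p = 1.12e-08). Only 3 fragments were behind the HEC value, and the ratio of BEC to HEC counts was 66.5 with a counting interval from 22.4 to 325. Both genes were near or under the floor of 3 fragments a library (11.3 normalised counts) in HECs. Of 10 myeloid and dendritic markers tested, 1 was called higher in HECs (Cd68, with a mean of 33270 against 7514 normalised counts) and 2 lower (Csf1r, 25.7 against 226, and Itgax, 29.0 against 130), with a list median log2 fold change of -0.26. Their part in the Vsir difference was not tested. Fibroblast and pericyte markers summed to 244 to 257 CPM in BEC normal and 22.9 to 24.8 CPM in HEC normal, the same direction as Vsir and Icosl, and their part in the differences was not tested. Lgals9 was slightly lower in HECs (26840, 26290 and 25590 against 28100, 30920 and 31790), by 0.21 ± 0.07 on the log2 scale (adjusted p = 0.00854), short of the threshold.

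**Figure D2:**
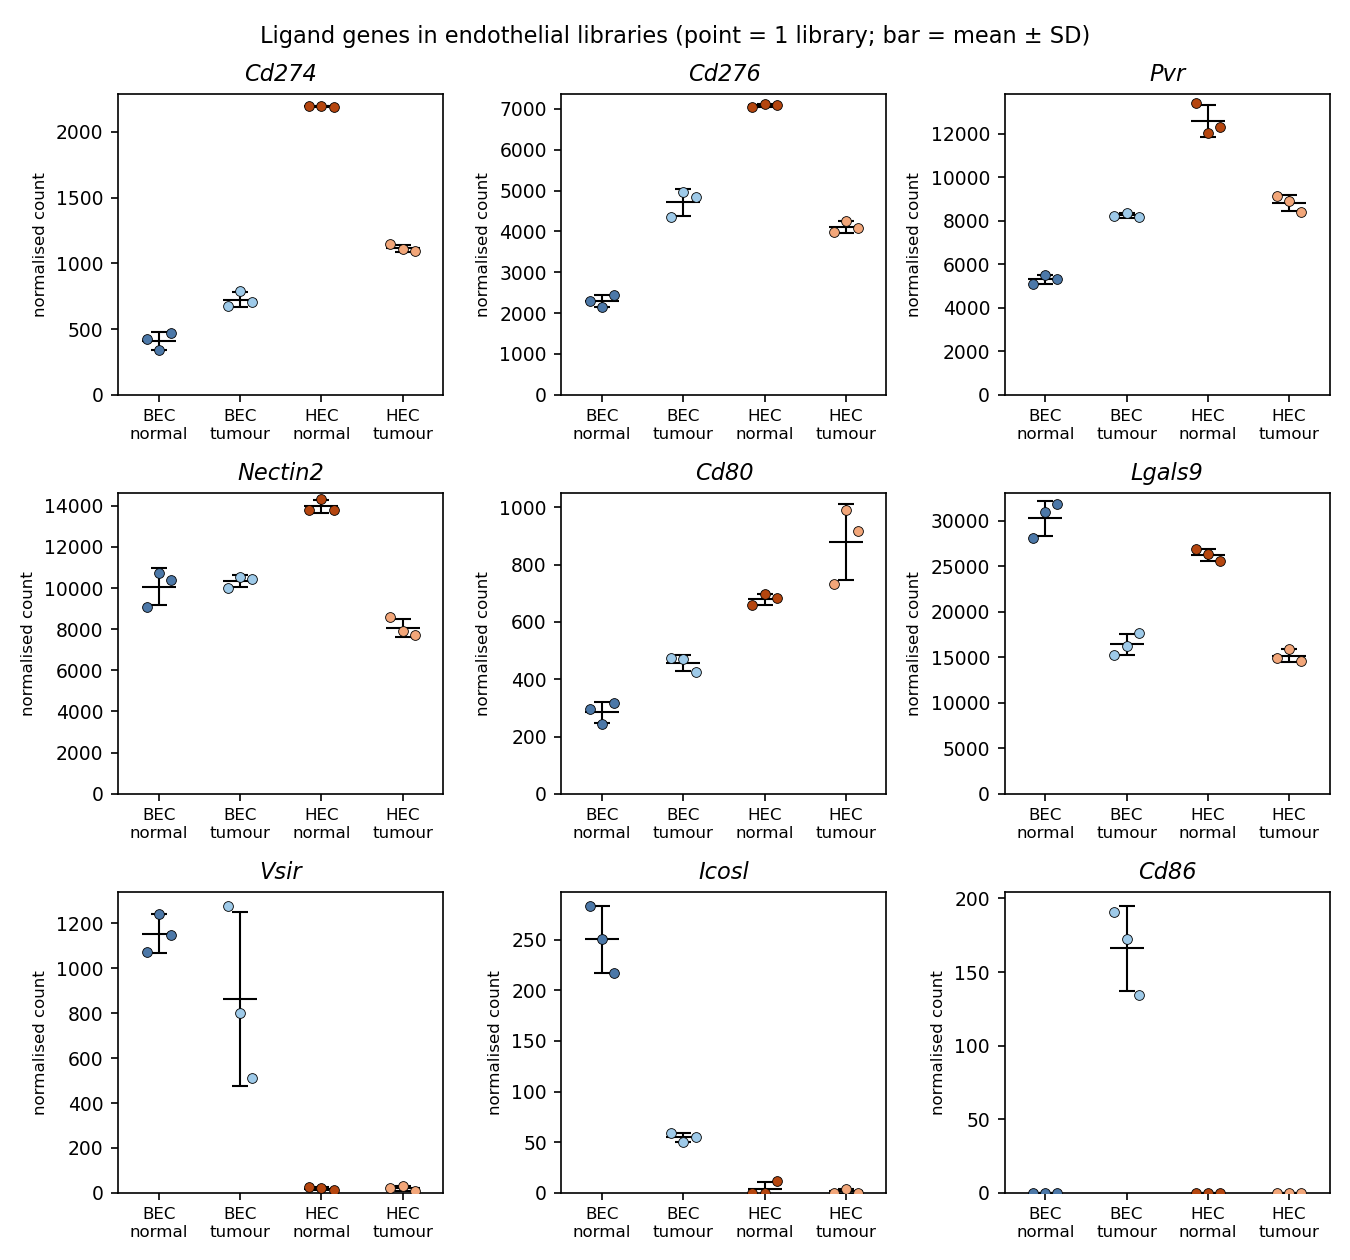
Normalised counts of 9 ligand genes in the 12 endothelial libraries, with the group on the x axis (point, 1 library; bar, mean ± SD of 3). Cd274 runs from 409 in BEC normal to 2195 in HEC normal, Vsir and Icosl are near 0 in both HEC groups, and Cd86 is above 0 in BEC tumour only.

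BECs of the primary tumour were next compared with BECs of the fat pad, which are the same BEC normal libraries as in the comparison above. Cd276 and Cd86 were higher in tumour BECs and Icosl was lower, which made 2 of 9 genes called higher and 1 of 9 lower, against 12.4% and 10.8% of all genes. By adjusted p alone 7 of 9 differed, against 53.7% of all genes, with Cd274, Cd80 and Pvr higher and Lgals9 lower by less than 2-fold. The median log2 fold change was 0.64 over the 9 and 0.01 over all genes. Cd86 passed the filter only through BEC tumour and so had to differ. Without it 1 of 8 was higher and 1 of 8 lower, with a median of 0.34.

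Cd276 was read at 4345, 4961 and 4846 in BEC tumour, all above the BEC normal libraries and 2.06-fold higher (log2 1.04 ± 0.07, adjusted p = 1.07e-45). Its value sat at the 2-fold threshold: it fell to 0.99 without BEC normal replicate 2, when the call was lost. Cd274 was at 676, 788 and 705 in BEC tumour, again above every BEC normal library (log2 0.82 ± 0.12, adjusted p = 4.96e-11). Pvr stood at 8212, 8373 and 8161 (log2 0.64 ± 0.06, adjusted p = 7.69e-25), and Cd80 at 475, 470 and 424 (log2 0.68 ± 0.15, adjusted p = 3.6e-05). None of the 3 overlapped between the groups, for which no share of all genes was taken, and none reached 2-fold. Nectin2 overlapped between the groups, at 10010, 10560 and 10460 in BEC tumour (log2 0.04 ± 0.07, 95% interval from -0.11 to 0.19, adjusted p = 0.677).

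Lgals9 and Icosl were lower in tumour BECs. Lgals9 was counted at 15250, 16280 and 17650, all below the BEC normal libraries (log2 -0.88 ± 0.07, adjusted p = 1.21e-32), which is 1.85-fold lower. Icosl was at 59.4, 49.9 and 54.9 in BEC tumour, also without overlap, and 4.58-fold lower (log2 -2.19 ± 0.93, adjusted p = 0.0355). That adjusted p moved with the libraries in the fit. It was between 0.109 and 0.152 when any of the 6 BEC libraries was left out and 2.8e-16 when the HEC libraries, most of them at 0, were left out, while the log2 fold change stayed between -2.29 and -2.10. It was 0.101 with a replicate block and 1 in the test against 2-fold, and the call was lost in 8 of 14 alternatives. Summed fibroblast and pericyte markers, at 38.1 to 69.5 CPM in BEC tumour against 244 to 257 CPM in BEC normal, moved in the same direction as Icosl. Of these 6 markers 5 were called lower, and Dcn was called higher (a mean of 481 against 181 normalised counts). Their part was not tested. Vsir was spread widely in BEC tumour, at 1279, 802 and 511, and overlapped with BEC normal (log2 -0.42 ± 0.39, adjusted p = 0.379).

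Cd86 was found in a single endothelial group. It was at 191, 173 and 134 normalised counts in BEC tumour and at 0 in all 9 other endothelial libraries, so that it was at least 14.7-fold higher in BEC tumour than a floor of 3 fragments a library would allow in BEC normal. This is a description, since the gene passed the filter through that group alone. Summed myeloid and dendritic markers were also higher in BEC tumour than elsewhere, with 9 of 10 tested called higher against BEC normal. The dendritic markers went the other way. Zbtb46, not called, had a mean of 781.1 normalised counts against 1363 in BEC normal, and Flt3, not tested, 3.487 against 5.444. The marker sums in BEC tumour replicates 1, 2 and 3 were 2143, 2037 and 1574 CPM. Cd86 and Vsir had the same order over these 3 libraries as the marker sum, but 3 libraries are too few to read an order. In BEC normal, where the markers summed to 128 to 151 CPM, Vsir was at 1071 to 1243. Adgre1, a macrophage marker, had a mean of 1790 normalised counts in BEC tumour and 2.53 in BEC normal, and C1qa, a complement gene of macrophages, 5655 and 0. Ptprc, which encodes the CD45 that the sort excluded, had a mean of 662 in BEC tumour and 16.1 in BEC normal. The part of myeloid RNA in the Cd86 and Vsir values of BEC tumour was not tested. Summed epithelial markers were 14.3, 18.1 and 84.3 CPM in BEC tumour against 3.61 to 6.92 in BEC normal.

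**Figure D3:**
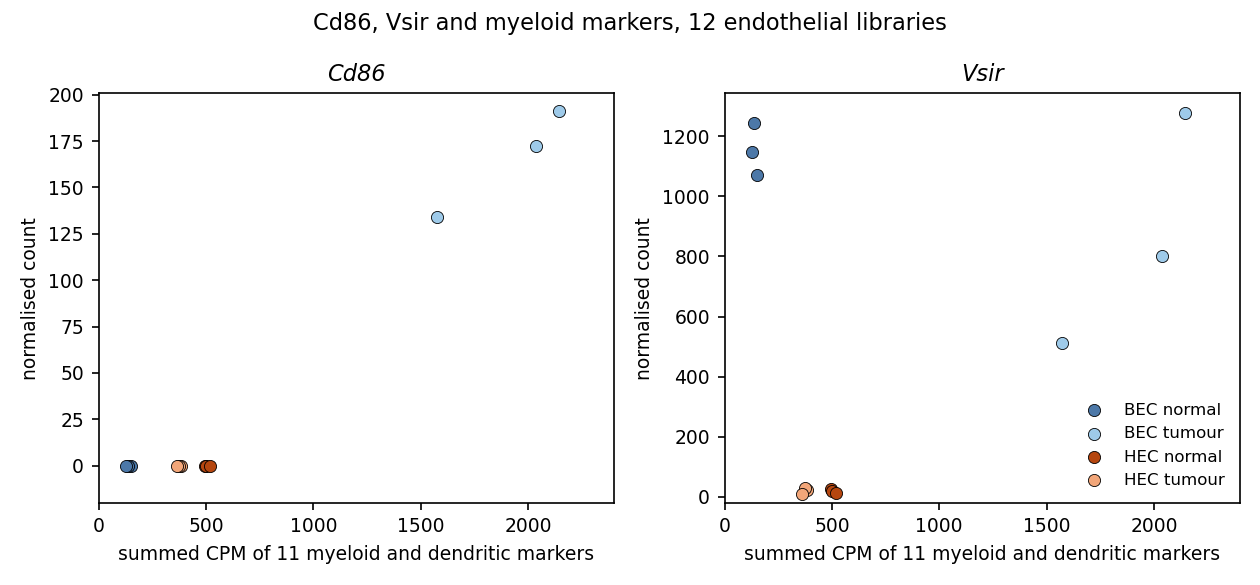
Normalised counts of Cd86 (left) and Vsir (right) against the summed CPM of 11 myeloid and dendritic markers, 1 point for each of 12 endothelial libraries. The 3 BEC tumour libraries, at 1574 to 2143 CPM, are the only ones with Cd86, and Vsir is at 1071 to 1243 in BEC normal, where the markers sum to 128 to 151 CPM.

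HECs of lymph node metastases were then compared with HECs of normal lymph nodes. No ligand gene passed both thresholds, so that 0 of 9 were called higher and 0 of 9 lower by DESeq2, against 4.58% and 3.21% of all genes. The edgeR quasi-likelihood test called 1 of 9, and 618 higher and 529 lower of all 18511 genes. At an unadjusted p under 0.05 the count was 6 of 9, for which no share of all genes was taken. By adjusted p alone it was 6 of 9, against 35.4% of all genes. Of the 6, Cd274, Lgals9, Nectin2, Cd276 and Pvr were lower in tumour HECs and Cd80 was higher, each by less than 2-fold. The median log2 fold change was -0.79 over the 9 and 0.02 over all genes.

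Cd274 was counted at 1144, 1109 and 1090 in HEC tumour and did not overlap with HEC normal. The log2 fold change of -0.98 ± 0.11 (adjusted p = 1.43e-16) was at the edge of the threshold, and it was -1.002 and called with edgeR (adjusted p = 7.88e-05) and with edgeR's TMM factors in DESeq2 (adjusted p = 2.84e-21). Lgals9 was at 14960, 15950 and 14580 (log2 -0.79 ± 0.07, adjusted p = 1.39e-25) and Nectin2 at 8575, 7892 and 7738 (log2 -0.79 ± 0.07, adjusted p = 8.31e-25). Both were 1.73-fold lower, below every HEC normal library. Cd276 was at 3977, 4258 and 4095 (log2 -0.79 ± 0.07, adjusted p = 1.17e-26), and Pvr at 9134, 8921 and 8428 (log2 -0.51 ± 0.06, adjusted p = 2.62e-16). Cd80 was the exception, at 733, 991 and 919 against 659 to 697 in HEC normal (log2 0.38 ± 0.15, adjusted p = 0.0322). Vsir was at 23.1, 30.6 and 7.75 in HEC tumour and Icosl was at 0 in 2 libraries and 3.95 in the other, where no difference was detectable at this depth (adjusted p = 0.868 and 0.39). Markers of other cells were also lower in HEC tumour. Of 5 leukocyte markers 2 were called lower (Ptprc, log2 -3.71 ± 0.89, and Laptm5, -1.78 ± 0.66), as were 1 of 5 B cell markers (Pax5, -1.46 ± 0.20) and 3 of 6 fibroblast and pericyte markers, which summed to 22.9 to 24.8 CPM in HEC normal and 11.2 to 11.6 CPM in HEC tumour. Their part in the ligand differences was not tested.

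Whether tumour went with another change in HECs than in BECs was tested as an interaction, that is, the log2 change in HECs less the log2 change in BECs, over the same 12 libraries. Cd276, Cd274, Pvr and Cd86 were called lower and no ligand gene was called higher, which was 4 and 0 of 9 against 12.1% and 11.2% of all genes. By adjusted p alone 5 of 9 differed, against 46.7% of all genes. The median over the 9 was -0.83 against 0.00 over all genes. Without Cd86, which passed the filter only through BEC tumour, 3 of 8 were lower, with a median of -0.57. For Cd276 the difference was -1.83 ± 0.10 (adjusted p = 7.8e-71), from a BEC change of 1.04 and a HEC change of -0.79. For Cd274 it was -1.80 ± 0.16 (adjusted p = 2.15e-26), from 0.82 and -0.98, and for Pvr -1.15 ± 0.08 (adjusted p = 3.94e-40), from 0.64 and -0.51. In these 3 genes all BEC tumour libraries were above all BEC normal libraries and all HEC tumour libraries below all HEC normal libraries. The share of all genes without such overlap was not taken, and the 3 genes were picked by the interaction call on the same libraries. Nectin2 differed by -0.83 ± 0.10 (adjusted p = 2.33e-14), from 0.04 in BECs and -0.79 in HECs. Lgals9 was lower with tumour in both cell types, and its changes differed by 0.09 ± 0.10 (adjusted p = 0.488). Cd80 was higher with tumour in both, with a difference of -0.30 ± 0.21 (adjusted p = 0.251). For Cd86 both HEC groups were at 0, so the size was not resolved, and with edgeR (adjusted p = 1) and with a replicate block (adjusted p = 0.194) it was not called.

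**Figure D4:**
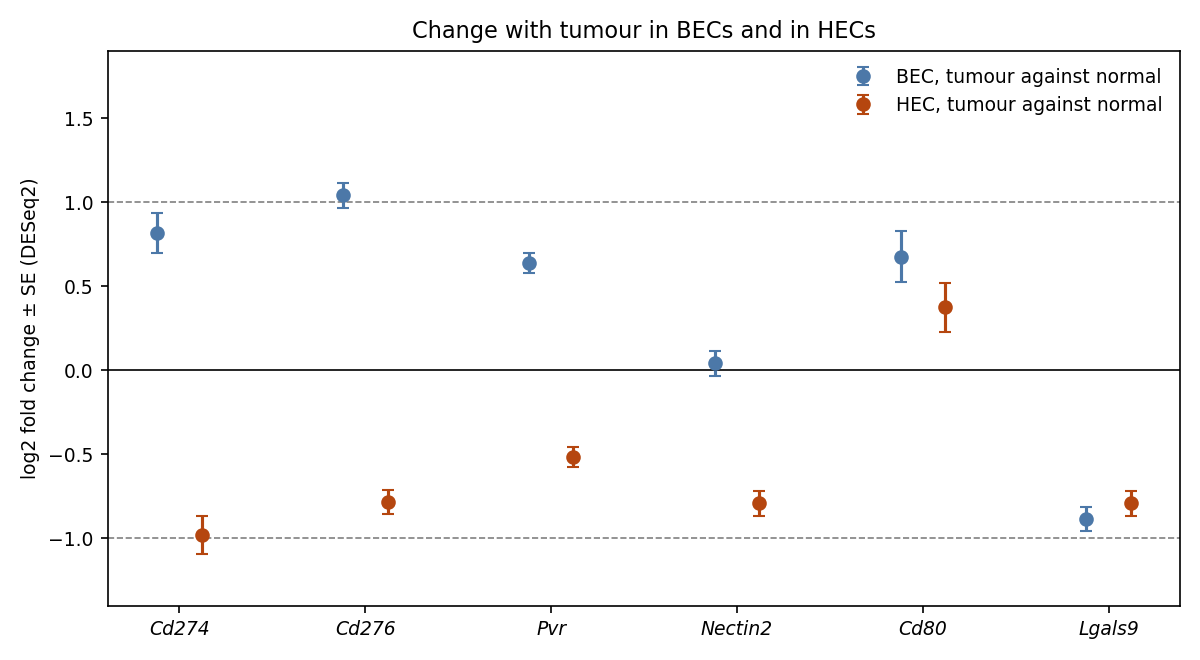
Log2 fold change ± SE (DESeq2) of 6 ligand genes with tumour in BECs (blue) and in HECs (orange), with dashed lines at 2-fold. Cd274, Cd276 and Pvr are above 0 in BECs and below 0 in HECs, Lgals9 is near -0.8 to -0.9 in both, and Cd80 is above 0 in both.

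The last endothelial comparison was that of HECs with BECs in tumour-bearing tissue, with the tumour libraries used above. It gave 0 of 9 ligand genes called higher and 3 of 9 lower (Vsir, Cd86 and Icosl), against 11.2% and 10.7% of all genes. By adjusted p alone 7 of 9 differed, against 54.3% of all genes. The median was -0.20 over the 9 and 0.01 over all genes. Without Cd86, 2 of 8 were lower, with a median of -0.16. Cd274 was still higher in HECs, by 0.62 ± 0.12 on the log2 scale (adjusted p = 2.76e-07), and Cd80 by 0.95 ± 0.15 (adjusted p = 7.74e-10), which became 1.07 and a call without HEC tumour replicate 1. Cd276 was lower by -0.20 ± 0.07 (adjusted p = 0.0113) and Nectin2 by -0.36 ± 0.07 (adjusted p = 5.11e-06). Pvr differed by 0.10 ± 0.06 (95% interval from -0.02 to 0.22, adjusted p = 0.16) and Lgals9 by -0.11 ± 0.07 (95% interval from -0.26 to 0.03, adjusted p = 0.187), and the groups overlapped for Lgals9. Vsir was lower in HECs by -5.39 ± 0.43 (adjusted p = 3.96e-34), with a ratio of BEC to HEC counts of 40.8 (counting interval from 24.6 to 73.2). For Icosl the ratio was 39.4 with an interval from 6.76 to 1590 (adjusted p = 2.62e-05). Cd86 was at least 14.7-fold lower in HEC tumour than in BEC tumour. The myeloid markers were at 363 to 383 CPM in HEC tumour, most of it Cd68, and at 1570 to 2140 CPM in BEC tumour. Their part in the Cd86, Vsir and Icosl differences was not tested.

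From these comparisons each gene had its own order over the 4 endothelial groups. Cd274 ran from HEC normal through HEC tumour and BEC tumour to BEC normal with no overlap between any neighbours. Pvr had the same order, but HEC tumour and BEC tumour did not differ past the adjusted threshold. Cd276 was highest in HEC normal, then BEC tumour, HEC tumour and BEC normal. Cd80 was highest in HEC tumour and followed by HEC normal, BEC tumour and BEC normal. For Lgals9 both normal groups were above both tumour groups, with means of 30270 ± 1929 and 26240 ± 626 (SD, n = 3) in normal BECs and HECs and of 16390 ± 1204 and 15160 ± 708 in tumour BECs and HECs.

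EO771 cells given 12-HETE were compared with cells given vehicle, to ask which ligand genes of the tumour cell itself differed with this lipid. Of the 10 genes, 6 passed the filter, and Lgals9 and Cd274 were lower with 12-HETE, which made 2 of 6 called lower and 0 of 6 called higher, against 7.79% and 2.38% of all 11602 genes tested. By adjusted p alone 4 of 6 differed, all lower, against 47% of all genes. The count at an unadjusted p under 0.05 was 5, for which no share of all genes was taken. The edgeR quasi-likelihood test also called 2, and 284 higher and 924 lower of all 11602 genes. The median log2 fold change was -0.70 over the 6 and 0.00 over all genes. The 12-HETE libraries lay much closer to each other than the vehicle libraries. Averaged over genes, squared differences between 12-HETE libraries were 2.46 to 2.86 times those of counting error alone. Between vehicle libraries they were 17.5 to 48.5 times, and the fit took a single spread per gene for both groups.

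Cd274 was counted at 634, 629 and 945 in vehicle and at 73.9, 109 and 105 with 12-HETE. The highest treated library was far below the lowest vehicle library, and the mean was 7.64-fold lower (log2 -2.93 ± 0.22, adjusted p = 1.82e-37). Lgals9 stood at 17840, 13790 and 15970 in vehicle and at 3976, 3770 and 3913 with 12-HETE, a 4.08-fold lower level (log2 -2.03 ± 0.12, adjusted p = 2.64e-67). Pdcd1lg2, the other PD-1 ligand and the chromosomal neighbour of Cd274, was at 484, 478 and 552 in vehicle and at 326, 300 and 322 with 12-HETE. The groups did not overlap, but the change was 1.6-fold (log2 -0.68 ± 0.13, adjusted p = 1.08e-06), short of the threshold. Nectin2 was at 3664, 3130 and 3265 in vehicle and at 2179, 2006 and 1945 with 12-HETE (log2 -0.71 ± 0.10, adjusted p = 8.76e-11). Pvr overlapped between the groups, with 4376, 3176 and 3904 in vehicle and 3254, 3128 and 3119 with 12-HETE (log2 -0.27 ± 0.13, adjusted p = 0.0775). Cd276 overlapped too, with 2801, 2090 and 2457 in vehicle and 2439, 2256 and 2357 with 12-HETE (log2 -0.06 ± 0.13, 95% interval from -0.31 to 0.19, adjusted p = 0.728).

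The 4 other genes were near the floor in EO771 cells. Cd80 had 36 counts over the vehicle libraries and 7 over the 12-HETE libraries, a ratio of 5.22 with a 95% counting interval from 2.29 to 13.9. Icosl had 8 and 7 counts, Vsir 9 and 2, and Cd86 was at 0 in all 6 libraries. The myeloid and dendritic markers summed to 23.3 to 27.9 CPM in vehicle and 25.5 to 26.3 with 12-HETE, whereas summed epithelial markers were 3050 to 3980 CPM in vehicle and 2040 to 2090 with 12-HETE, and their relation to the ligand changes was not tested.

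**Figure D5:**
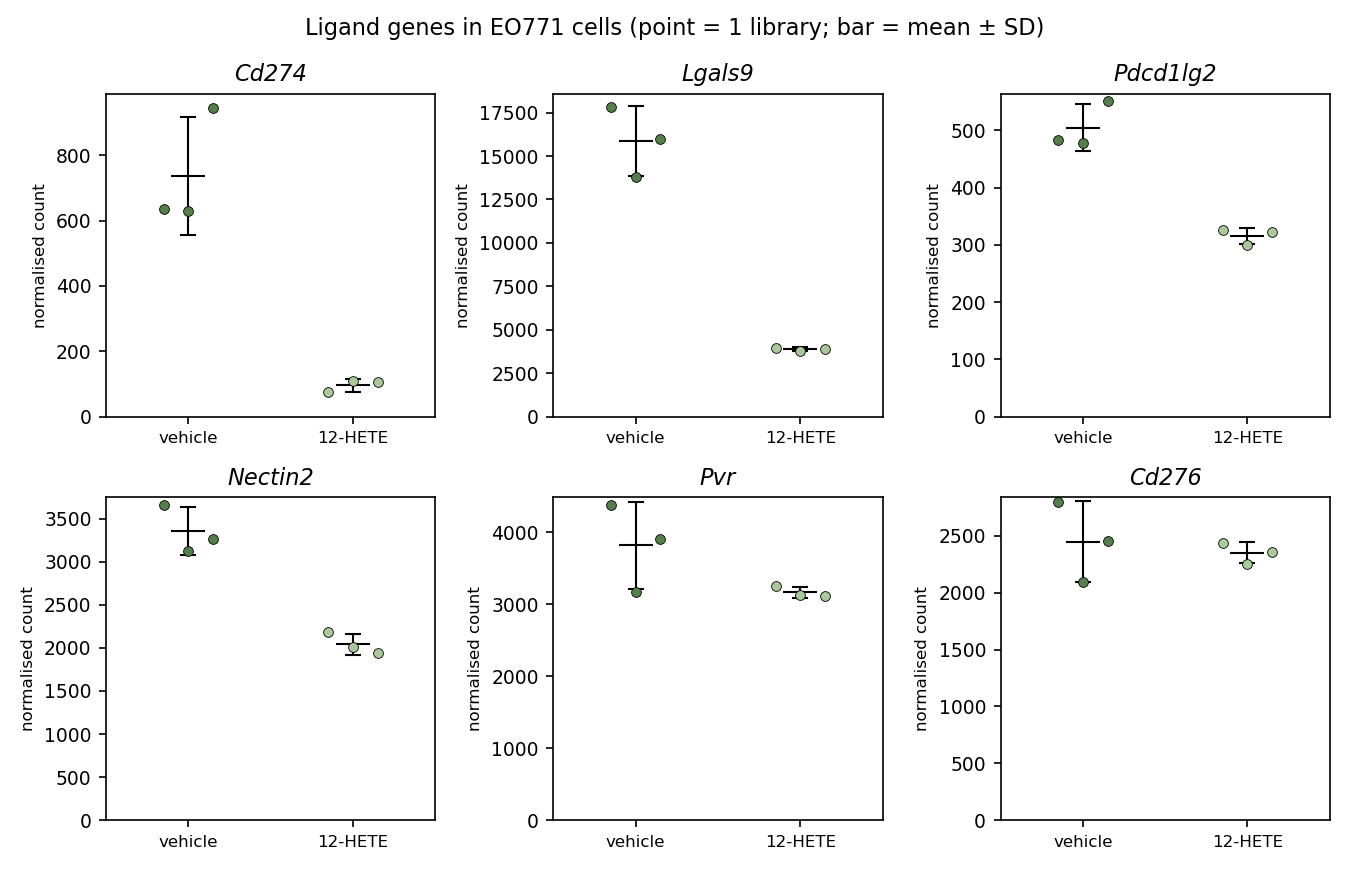
Normalised counts of 6 ligand genes in EO771 cells given vehicle or 12-HETE (point, 1 library; bar, mean ± SD of 3). The 12-HETE libraries are below all vehicle libraries for Cd274, Lgals9, Pdcd1lg2 and Nectin2 and overlap with them for Pvr and Cd276.

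Genes around the ligands were followed as lists. Among 16 interferon and JAK-STAT regulators, all tested in EO771 cells, 5 were lower with 12-HETE and 0 higher, against 7.79% and 2.38% of all genes, with a median log2 fold change of -0.33 against 0.00 over all genes. Stat2 and Irf9, which encode factors that interferon signals activate, were lower by -4.34 ± 0.10 and -3.51 ± 0.10 on the log2 scale (adjusted p = 5.26e-243 for Irf9). Irf1, which drives Cd274 in response to interferon-γ, was lower by -1.44 ± 0.10 (adjusted p = 3.69e-45), and Socs3, which feeds back on STAT signals, by -1.08 ± 0.13 (adjusted p = 1.04e-15). In HEC tumour against HEC normal, 4 of the 16 were lower and 0 higher (median -0.31, against 3.21% and 4.58% of all genes), with Stat2 at -2.20 ± 0.17 and Stat3 at -1.25 ± 0.10. In BEC tumour against BEC normal 2 of 16 were lower and 0 higher (median -0.40), against 10.8% and 12.4% of all genes. Between cell types 0 were higher and 3 lower in normal HECs (median -0.01, against 17.1% and 15.1% of all genes), and 1 was higher and 3 lower in tumour HECs (median -0.33, against 11.2% and 10.7%).

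All 5 tested of 10 other costimulatory ligands were lower in EO771 cells with 12-HETE (median -1.58), against 7.79% of all genes, among them Vcam1 at -1.58 ± 0.16, Icam1 at -1.18 ± 0.14, both adhesion ligands of T cell integrins, and Cd40 at -1.87 ± 0.24. In endothelial cells Icam1 was higher in BEC tumour by 2.03 ± 0.14 (adjusted p = 6.79e-46), the only 1 of 5 called there, where 12.4% of all genes were higher. Of these 5 genes 1 was higher and 2 lower in normal HECs than in normal BECs, 1 was higher and 0 lower in tumour HECs than in tumour BECs, and 1 was higher and 0 lower with tumour in HECs. The shares of all genes were those given above for each comparison, and a single gene among 5 is not read against them. Of 13 other ligands of inhibitory receptors, 10 were tested in EO771 cells, where 1 was higher (Hmgb1) and 1 lower, H2-T23, which encodes the NKG2A ligand Qa-1 (log2 -2.69 ± 0.16, adjusted p = 8e-59). In HEC normal against BEC normal 2 of these 13 were higher and 5 lower (median -0.83), where 17.1% and 15.1% of all genes were called, among them Cd200, the ligand of an inhibitory myeloid receptor, at -5.46 ± 0.43, and H2-T23 at -4.15 ± 0.24. With tumour 3 were higher and 5 lower in BECs (12.4% and 10.8% of all genes), and 2 were higher (Ceacam1 and Cd48) and 0 lower in HECs (4.58% and 3.21%). In HEC tumour against BEC tumour 2 were higher and 8 lower (11.2% and 10.7%).

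Of 11 other B7, butyrophilin and nectin genes, 6 were tested in endothelial cells. Nectin1 and Nectin4, adhesion molecules of the family of Pvr and Nectin2, exceeded their fat pad BEC level in normal HECs by 1.14 ± 0.07 and 4.50 ± 0.25, and in tumour BECs by 1.21 ± 0.07 and 4.31 ± 0.25. Cadm1, which binds the T and NK cell receptor CRTAM, was also higher in BEC tumour (log2 1.55 ± 0.21) and lower in HEC normal than in BEC normal (log2 -3.81 ± 0.26). Genes called higher and lower numbered 2 and 2 in HEC normal against BEC normal, 3 and 1 in BEC tumour against BEC normal, 1 and 1 in HEC tumour against HEC normal, 0 and 2 in HEC tumour against BEC tumour, and 1 and 1 of 7 tested in EO771 cells with 12-HETE. Over all genes the shares in the same order were 17.1% and 15.1%, 12.4% and 10.8%, 4.58% and 3.21%, 11.2% and 10.7%, and 2.38% and 7.79%. Of 8 regulators of PD-L1 protein, all tested in endothelial cells, 1 was called, B3gnt3, which encodes an enzyme that glycosylates PD-L1. It was higher in HEC normal by log2 1.83 ± 0.08 (adjusted p = 1.2e-127), where 17.1% of all genes were called higher. Its interaction with tumour was -1.20 ± 0.11 and was called lower, as were 12.1% of all genes. Cmtm6, which protects PD-L1 from degradation, was not called in any comparison (log2 0.16 ± 0.12 in EO771 cells, adjusted p = 0.272). In EO771 cells 0 of 7 regulators were called, against 2.38% of all genes higher and 7.79% lower. Of 10 receptors of the ligands, 3 passed the filter in each table, and Tigit was the only one called. Its mean was 74.6 and 11.9 normalised counts in normal and tumour BECs and 20.8 and 21.6 in normal and tumour HECs. These values are low against the floor of 11.3 a library. Relative to normal BECs, Tigit was called lower in normal HECs (log2 -1.84 ± 0.74) and tumour BECs (log2 -2.64 ± 0.75). The shares of all genes called lower there were 15.1% and 10.8%. Its interaction was called higher (2.69 ± 1.07), as were 11.2% of all genes. A single gene among 3 is not read against these shares.

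Over the 12 endothelial libraries, which share 4 groups of 3, the genes most like Cd274 by Pearson's r of log2 normalised counts among 13290 genes were Tgif1 (0.989), Limk1 (0.988) and Crebrf (0.987). Those most like Pvr were Tbc1d10b (0.996), Rps6ka2 (0.995) and Pacsin3 (0.992). Those most like Lgals9 were Isg15 (0.994), Gsdmd (0.989) and Ifi35 (0.988), of which Isg15 and Ifi35 are interferon-stimulated genes. Among the ligands themselves Cd276 and Pvr had an r of 0.968, Cd274 and Pvr 0.965, and Icosl and Vsir 0.911. These values describe 4 group means as much as 12 libraries.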

How the data were processed

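RNA was sequenced from 12 endothelial and 6 EO771 libraries. Reads were aligned to GRCm38 with STAR and counted with featureCounts by the authors; the library kit differs between labels and methods. The deposited EO771 table holds raw counts per gene. The deposited endothelial values are whole numbers whose low values lie in steps of about 3.75 and were taken as estimated counts, scaled by the authors in a way not given in the sources used here, with 3 fragments, or 11.3 units, as the floor per library. Intervals of count ratios cover counting error only, whereas those of log2 fold changes come from the DESeq2 SE, which includes the spread between libraries. Normalised counts are counts divided by DESeq2 size factors. TPM used exon lengths of the GRCm38 annotation. DESeq2 1.42.0 (R 4.3.3; group as the only term, Wald test, Benjamini-Hochberg adjustment over all genes with a mean of 10 or more, no independent filtering) was fitted to the 12 and to the 6 libraries separately, and checked on simulated counts. Calls needed adjusted p under 0.05 and an absolute log2 fold change over 1. Alternatives were edgeR 4.0.16 with TMM, TMM factors in DESeq2, no filter, adjusted p alone, a test against 2-fold, a replicate block, each library left out, values divided by the step, and only the 2 groups compared. From each list, the 3 called genes with the largest Wald statistic in each direction could be named; Irf1, Socs3, Cmtm6, Adgre1, C1qa, Ptprc and genes named with small counts were chosen after their values were seen. The 10 ligands, the 6 other ligand, receptor and regulator lists and the 10 marker lists were chosen with earlier results of these data known. Some values are not reported here.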

Additional observations from a re-analysis of the deposited data

Results flagged for a closer look

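In 4 ligand genes HECs and BECs did not change alike with tumour (interaction, DESeq2 Wald test, HEC change less BEC change). The log2 difference was -1.83 for Cd276, -1.80 for Cd274 and -1.15 for Pvr. For each of them the 3 HEC tumour libraries were below and the 3 BEC tumour libraries above the respective normal libraries. No share of all genes was taken for this lack of overlap. For Cd86 the fitted value was -9.67 (-9.674), but it rests on 3 BEC tumour libraries, with all 9 other endothelial libraries at 0, so its size was not resolved.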

How the results depend on the processing

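No call of a ligand gene reversed its direction under any alternative. Of 744 recomputed values of single genes, 706 kept their side of the threshold, 24 became calls and 14 lost them, and the causes were not tested. By adjusted p alone the number of ligand genes called was 7 in place of 3 for HEC tumour against BEC tumour, 6 in place of 0 for HEC tumour against HEC normal, 7 in place of 3 for BEC tumour against BEC normal and 4 in place of 2 in EO771 cells. In HEC tumour against HEC normal edgeR called 1 and TMM factors in DESeq2 called 1, in both cases Cd274. Leaving out each library gave 0 to 1 there, with Icosl called without HEC tumour replicate 2 (log2 -4.22, adjusted p = 0.0494), and 1 to 2 in BEC tumour against BEC normal, with 1 without BEC normal replicate 2. A test against 2-fold called 1 in BEC tumour against BEC normal. It also lost Pvr from the interaction (adjusted p = 0.51). Without HEC normal replicate 3 Icosl entered the interaction (log2 5.12, adjusted p = 0.00688). Same-numbered libraries deviated together little or not at all (correlations of deviations from -0.01 to 0.15). This cannot show whether the numbers pair them, which the labels do not state. With a replicate block the counts were 6, 3, 0, 2 and 3 in the 5 endothelial comparisons and 2 in EO771 cells, and Icosl was lost in BEC tumour against BEC normal. Without Cd86, a choice made after seeing the data, the 5 counts were 6, 2, 0, 2 and 3. Depth limits Icosl and Vsir in HECs, Pdcd1lg2 in all endothelial libraries, and Cd80, Cd86, Icosl and Vsir in EO771 cells, where a few fragments decide a value.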
